A study of Mus musculus with 5 samples.

Results

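The contractile proteins of smooth muscle, and myocardin, a cofactor that drives their genes, were followed across 5 microarrays of cells sorted from dystrophic mouse muscle. The 9 genes were Myocd, Cnn1, Cnn2, Myh11, Lmod1, Tagln, Smtn, Mylk and Synpo2. They were taken by the gene name that the array design gives. They are 9 of 36409 genes and unnamed features, and 13 of the 55681 probes on the array carry their names. The list was selected on measured values, since several of the genes had some of the largest differences between trichostatin A (TSA) and vehicle in Sca1+ cells. That difference, and any count of genes past a threshold in it, is therefore only a description of the genes chosen, and no p-value is printed for it. All 9 genes passed the filter on dim probes, so none was dropped, although Myocd and Lmod1 passed through TSA and MuSC arrays alone and so had to differ from vehicle.

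Smooth muscle cells shorten when calcium and calmodulin activate myosin light chain kinase, which phosphorylates the light chains of smooth muscle myosin. Myocardin acts on their genes by binding serum response factor, which sits on CArG boxes, short DNA elements found near many smooth muscle genes. In skeletal muscle, these proteins are best known from the smooth muscle wall of arterioles, and some are also made by pericytes, myofibroblasts and immature muscle cells.

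All animals were mdx mice (labelled DMD/MDX, strain C57BL/6), which lack dystrophin, the protein missing in Duchenne muscular dystrophy, and all were injected intraperitoneally for 45 days. TSA, an inhibitor of histone deacetylases, was given at 0.6 mg/kg. The groups were Sca1+ interstitial cells after TSA on 2 arrays, muscle stem cells (MuSC) after vehicle on 1 array, and Sca1+ interstitial cells after vehicle on 2 arrays. Both populations were sorted for CD34 and α7-integrin and differed in Sca1, which MuSC lacked, so no gate addressed smooth muscle cells directly. The labels give neither the age of the mice nor whether each replicate was a separate animal or pool. The spread behind every p-value may therefore be technical.

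Levels are log2 signals relative to the 75th percentile of the array, so 0 is that percentile itself.

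The plot of the 9 genes by array shows the 5 values of each.

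**Figure D1:**
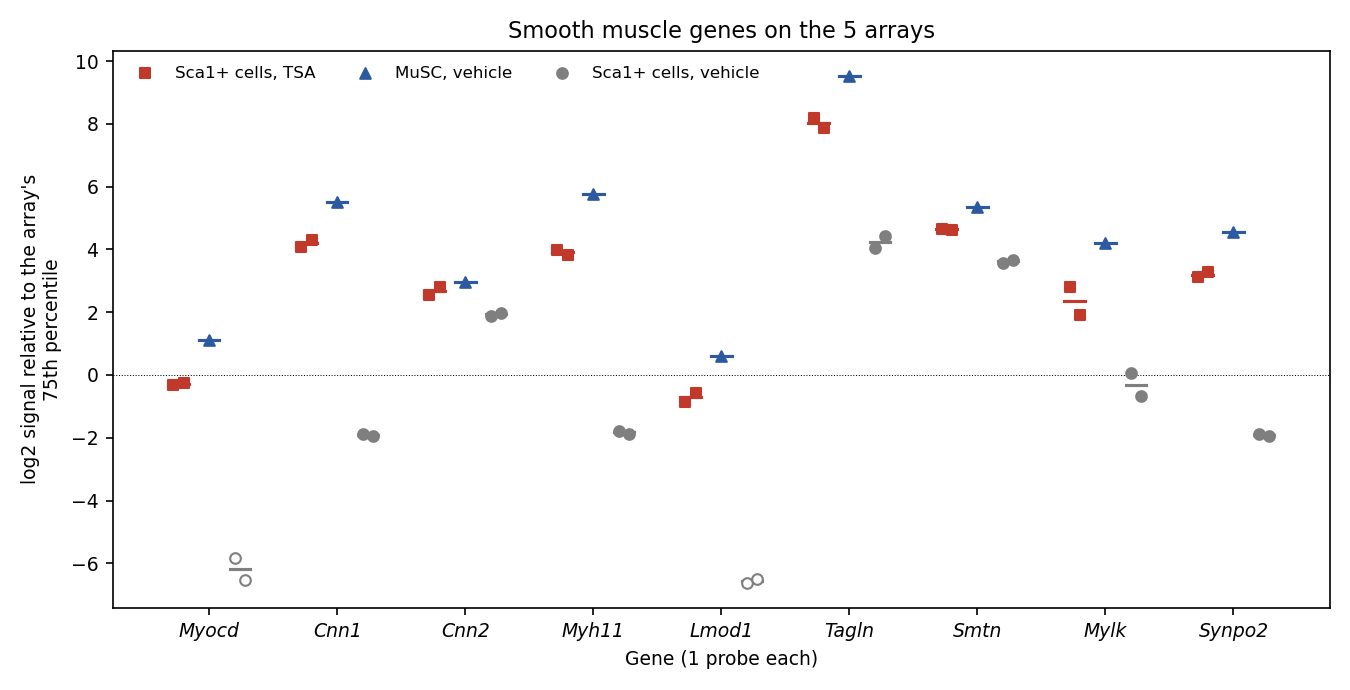
Level of each of the 9 genes on every array, as log2 signal relative to the array's 75th percentile (vertical axis), with 1 probe per gene (horizontal axis). Squares are Sca1+ cells with TSA, triangles MuSC with vehicle and circles Sca1+ cells with vehicle, a short line marks each group's mean, and open circles are values not well above background. For every gene both TSA arrays lie above both vehicle arrays and below the MuSC array.

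Both TSA arrays lay above both vehicle arrays for 9 of 9 genes, as they did for 22.9% of all 26088 genes with the values to compare. For 9 of 9 genes they lay both above the vehicle arrays and below the MuSC array, as for 13.9% of all genes. Over all genes, 5963 met the first condition and 3627 met both. Each share includes the TSA difference on which the 9 genes were chosen, and so follows in part from that choice. In the limma fit over all genes, 6 of the 9 genes, selected on this same difference, passed an adjusted p of 0.05 as higher with TSA, beside 2.71% of all genes, and none passed as lower, beside 0.268%. Without TSA replicate 1 or without TSA replicate 2 this count was 0 of 9, and no gene of the whole array passed in either direction. Those fits had 1 residual degree of freedom, and the median difference of the 9 genes was 5.19 and 5.01 in them. The same loss applies to every other count of TSA calls given here. The median difference, TSA minus vehicle, was 5.10 for the 9 genes and -0.13 for all genes. With values not well above background raised to the lowest measurable signal, it was 3.81 for the 9 and -0.15 for all. Because these are RNA levels of whole sorted populations, more cells of a kind and more RNA per cell cannot be told apart.

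Myocd encodes myocardin itself. It had levels of -0.33 and -0.26 on the TSA arrays, 1.12 on the MuSC array, and -5.82 and -6.53 on the vehicle arrays. Both vehicle values were not well above background, so only a bound exists: the signal was at least 18.7-fold higher with TSA and at least 50-fold higher in MuSC (limma adjusted p for MuSC = 0.0015). The dim side of each such bound is the lowest signal among probes well above background on the array, or the probe's own signal where that is higher. A dim probe can read above that lowest signal, so the bound does not rest on a strict detection limit. An adjusted p printed beside such a bound comes from the fit to the measured values, dim ones included, and does not test the bound. Every gene given such a bound passed the filter only through arrays where it was high. Its difference from vehicle therefore follows in part from the filter. With normexp background correction, which adds an offset of 50 to every signal, the log2 differences were 1.78 for TSA and 2.92 for MuSC. The first 30 of the probe's 60 bases are shown, because the myocardin result rests on this 1 probe, with coordinates in mm9, the build of the array files.
Myocd probe A_55_P2021540, chr11:64991960-64991989 (- strand): taatctgaattcccctatggatctccactt

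The basic calponin Cnn1, an actin-binding brake on myosin's ATPase and a marker of differentiated smooth muscle, had the largest TSA difference of the 7 genes measured above background with TSA and with vehicle. Its levels were 4.09 and 4.31 with TSA, 5.52 in MuSC, and -1.89 and -1.94 with vehicle. All 5 arrays measured it well above background, and no 2 groups overlapped. The TSA difference was 6.12 ± 0.16 on the log2 scale, a 69.4-fold higher signal, and was 5.99 on slide 1 and 6.25 on slide 2. The MuSC difference from vehicle was 7.43 ± 0.20 (limma adjusted p = 0.00141), a 173-fold higher signal.

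Its relative Cnn2, a calponin made by many cell types, had a smaller difference. Its levels were 2.56 and 2.79 with TSA, 2.97 in MuSC, and 1.89 and 1.98 with vehicle, a TSA difference of 0.74 ± 0.17 and a MuSC difference of 1.04 ± 0.20 (limma adjusted p = 0.0321). A second Cnn2 probe read 1.79 and 1.95 with TSA, 2.17 in MuSC, and 1.28 and 1.84 with vehicle, so that the TSA and vehicle arrays overlapped on it. The remaining calponin, Cnn3, which was not among the 9, differed by 0.10 ± 0.15 (limma adjusted p = 0.704), with 5.09 and 5.05 in TSA arrays and 5.02 and 4.93 in vehicle arrays.

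The promoters of the 2 calponins with a wide and a narrow difference are printed for comparison, as the 250 bases before the gene start in RefSeq (GRCm38.p6), with a CArG box in capitals where one was found.
Cnn1, chr9:22099003-22099252 (+ strand): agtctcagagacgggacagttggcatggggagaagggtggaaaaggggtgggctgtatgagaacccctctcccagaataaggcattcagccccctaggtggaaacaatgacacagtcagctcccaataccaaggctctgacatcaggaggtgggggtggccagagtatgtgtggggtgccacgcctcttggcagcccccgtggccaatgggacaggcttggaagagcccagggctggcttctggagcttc
Cnn2, chr10:79988350-79988599 (+ strand): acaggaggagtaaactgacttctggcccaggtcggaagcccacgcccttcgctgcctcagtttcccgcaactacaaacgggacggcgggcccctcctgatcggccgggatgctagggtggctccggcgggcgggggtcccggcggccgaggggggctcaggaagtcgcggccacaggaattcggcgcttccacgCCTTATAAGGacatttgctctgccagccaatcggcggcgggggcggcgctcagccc

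The CArG box was found in Cnn2, 56 to 47 bases before the start, and none lay in the Cnn1 window. Over the 6 of 9 genes with a window, 1 held a CArG box, beside 1.47% of all 32851 windows and 4 of 29 other smooth muscle genes. The E-box CANNTG, searched on both strands, was in 4 of 6, beside 66.2% of all windows. The MCAT element CATTCC, searched on both strands, was in 3 of 6 (Lmod1, Mylk and Smtn), beside 12.6% of all windows. A match is a run of letters in this window only. Tagln, Myocd and Myh11 had no window and are named only.

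Myh11 encodes the smooth muscle myosin heavy chain, the motor of the contractile filament. It had 3.98 and 3.83 with TSA, 5.76 in MuSC, and -1.77 and -1.89 with vehicle. The TSA difference was 5.74 ± 0.16, and the MuSC difference from vehicle was 7.59 ± 0.19, the largest of those 7 genes (limma adjusted p = 0.00141). None of the non-muscle heavy chain genes passed the test with TSA. Myh9 differed by 0.31 ± 0.15 with TSA (adjusted p = 0.303), Myh10 by -0.27 ± 0.18 (adjusted p = 0.413) and Myh14 by -0.19 ± 0.15 (adjusted p = 0.487), all from limma.

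Mylk encodes the kinase that phosphorylates the myosin light chain. Its levels were 2.80 and 1.91 with TSA, 4.19 in MuSC, and 0.06 and -0.68 with vehicle. Slide 1 read above slide 2 with TSA and with vehicle, and the groups did not overlap. The TSA difference was 2.67 ± 0.42. It was 2.74 on slide 1 and 2.60 on slide 2. The MuSC difference from vehicle was 4.50 ± 0.52 (limma adjusted p = 0.00876). Of the other kinases of the family, Mylk2, known from skeletal muscle, differed by 0.16 ± 0.36 with TSA (limma adjusted p = 0.807) and Mylk3, known from heart, by -0.32 ± 0.62 (limma adjusted p = 0.767). Mylk3 was well above background on only 1 of 2 TSA arrays and 1 of 2 vehicle arrays, so its difference is not firm.

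Lmod1, smooth muscle leiomodin, starts new actin filaments. It had -0.85 and -0.57 with TSA, 0.62 in MuSC, and -6.61 and -6.51 with vehicle, where neither value was well above background. The signal was therefore at least 14.0-fold higher with TSA and at least 35.3-fold higher in MuSC than in vehicle Sca1+ cells (limma adjusted p for MuSC = 0.00141). With normexp the log2 differences were 1.41 for TSA and 2.52 for MuSC. Its relatives Tmod1, which caps actin filament ends, and Lmod3, a leiomodin of skeletal muscle, were higher with TSA, Tmod1 at least 1.45-fold against vehicle values not well above background (limma adjusted p = 0.00804) and Lmod3 by 1.30 ± 0.15 on the log2 scale (limma adjusted p = 0.0358). Tmod3 differed by 0.00 ± 0.17 (limma adjusted p = 0.989). Another leiomodin, Lmod2, read lower with TSA (-7.06 and -7.71) than with vehicle (-5.34 and -6.53), but none of these values was well above background.

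Tagln, transgelin or SM22-alpha, an actin-bundling protein and an early marker of the smooth muscle lineage, was well above background on every array. Its levels were 8.18 and 7.88 with TSA, 9.52 in MuSC, and 4.04 and 4.44 with vehicle. The groups did not overlap. The TSA difference was 3.79 ± 0.22, 4.14 on slide 1 and 3.43 on slide 2. MuSC exceeded vehicle by 5.28 ± 0.28 (limma adjusted p = 0.00175). Its near relative Tagln2, found in most cells, had 7.6 and 7.88 with TSA and 7.4 and 7.7 with vehicle, and did not pass the test (0.19 ± 0.20, limma adjusted p = 0.59).

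Smtn encodes smoothelin, a protein of actin filaments in contractile smooth muscle, and was measured by 2 probes that read differently. On the probe used in the fit the levels were 4.65 and 4.63 with TSA, 5.34 in MuSC, and 3.58 and 3.67 with vehicle, a TSA difference of 1.01 ± 0.15. On the other probe they were 1.79 and 1.88 with TSA, 2.01 in MuSC, and 1.62 and 1.5 with vehicle, a TSA difference of 0.27. Averaging both probes gave 0.64. The groups did not overlap on either probe. MuSC exceeded vehicle by 1.72 ± 0.18 on the probe of the fit (limma adjusted p = 0.00712) and by 0.45 on the other. The 2 probes lie apart on chromosome 11, and their first 30 bases are given because the size of the Smtn difference depends on which is read.
Smtn probe A_55_P2065824, chr11:3417560-3417589 (- strand): tctgtcaaaacacctctcccctttgtacac
Smtn probe A_51_P479786, chr11:3420864-3420893 (- strand): tggatacagaggacatggtgcggcttcgag

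Synpo2, also called myopodin, binds actin and alpha-actinin at dense bodies and Z-discs, and was measured by 3 probes. The probe used in the fit had 3.11 and 3.29 with TSA, 4.54 in MuSC, and -1.87 and -1.93 with vehicle, a TSA difference of 5.10 ± 0.16 and a MuSC difference of 6.44 ± 0.19 (limma adjusted p = 0.00141). The second probe had -2.24 and -2.27 with TSA, -0.32 in MuSC, and -3.98 and -3.95 with vehicle. The last probe had -2.69 and -3.03 with TSA, -1.06 in MuSC, and -3.81 and -4.35 with vehicle, 1 of these 2 vehicle values well above background. On all 3 probes the order was vehicle, TSA, MuSC, but the TSA differences of the other 2 were 1.71 and 1.21, and the mean over the 3 probes gave 2.67. All 3 lie on the reverse strand of chromosome 3, and no exon or UTR is named here for any probe since those files give only position and strand.
Synpo2 probe A_55_P2095133, chr3:122779489-122779518 (- strand): ctctgtcctcaaaggctgtatgtgaaagat
Synpo2 probe A_55_P2159309, chr3:122782124-122782153 (- strand): gatataacatgcatttgccatttaccttgt
Synpo2 probe A_52_P223127, chr3:122815528-122815557 (- strand): cacaaatgcgcaggcttcttctgtgtactc

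**Figure D2:**
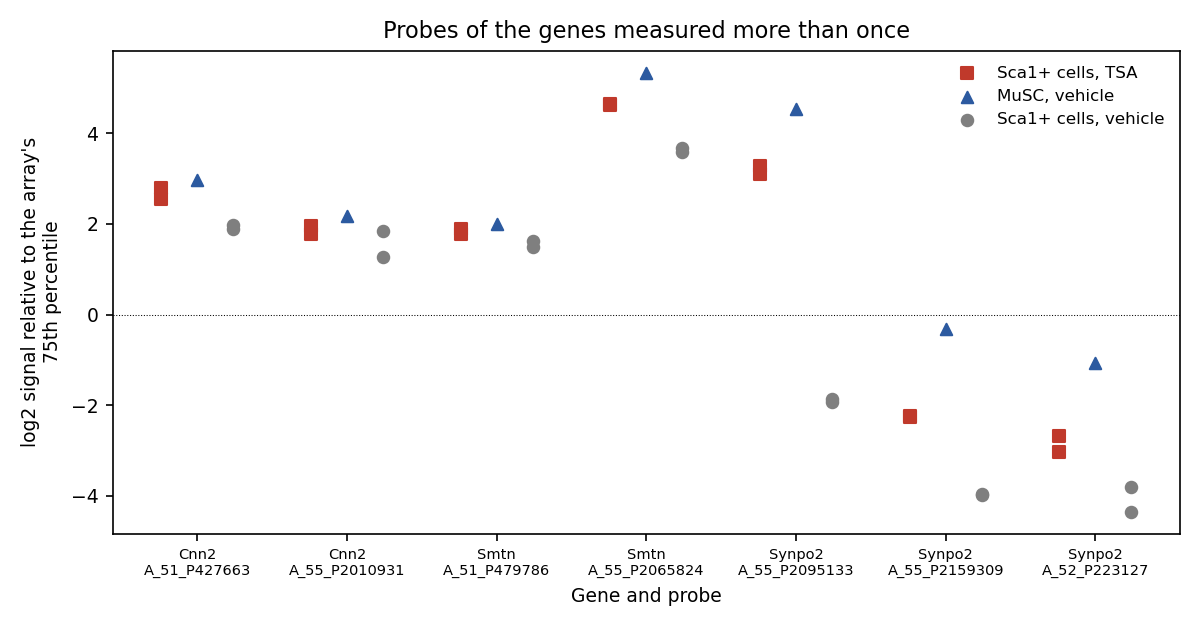
Level on each array (log2 signal relative to the array's 75th percentile, vertical axis) for every probe of the 3 genes measured more than once (horizontal axis, gene and probe name). Squares are Sca1+ cells with TSA, triangles MuSC with vehicle and circles Sca1+ cells with vehicle. The probes of Synpo2 differ in TSA difference from 5.10 to 1.21, and on the second Cnn2 probe a TSA array (1.79) lies below a vehicle array (1.84).

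Likeness between genes was measured as the root mean square difference of their 5 values, each taken about its own mean. Of genes measured above background on every array, Cnn1 and Myh11 were 0.25 log2 units apart, Cnn1 and Synpo2 0.49, and Cnn2 and Smtn 0.26, while Cnn1 and Cnn2 were 2.82 apart. Myocd was 0.24 from Cnn1, 0.25 from Myh11 and 0.27 from Lmod1, and Lmod1 was 0.14 from Cnn1. The distances of Myocd and Lmod1 rest on vehicle values not well above background, for which only an upper limit holds. Outside the 9 genes, the 5 nearest to Cnn1 among tested genes with a symbol were Myom1 at 0.24, Nrip2 at 0.26, Smco3 and Olfr558 at 0.29 each, and Pln at 0.32. Outside the 9 genes, the 5 nearest to Myocd were Myom1 at 0.14, Olfr558 at 0.25, Nrip2 at 0.26, Tesc at 0.32 and Smco3 at 0.38. Myom1, Smco3 and Pln too had vehicle values not well above background, so the order of these distances is not firm. Myom1 encodes a protein of the striated sarcomere's M-band, and Pln encodes phospholamban, a regulator of the calcium pump. With 5 arrays in 3 groups, this measure mostly reflects the 3 group levels.

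The MuSC array was set against the vehicle arrays in the same fit, a comparison that shares both vehicle arrays with the one that chose the genes. With 1 MuSC array, the fit takes its spread from the Sca1+ arrays and assumes that MuSC vary alike. All 9 genes passed as higher in MuSC, beside 10.5% of all genes, none as lower, beside 11.7%, and the median difference was 6.44 against -0.04 for all genes. For Myocd and Lmod1 this follows in part from the filter, which they passed only where they are high. With dim values at the lowest measurable signal the medians were 5.28 and -0.05. Averaging the probes of a gene gave 8 of 9, and so did a fit with no filter on dim probes. Leaving out any 1 of the 4 Sca1+ arrays left 8 of 9, without Cnn2. TSA and MuSC were also compared directly, which shares the TSA arrays. All 9 differences were negative, with a median of -1.34 against -0.13 for all genes, and 5 passed as lower with TSA (Cnn1, Myh11, Lmod1, Tagln and Synpo2), beside 4.83% of all genes, while none passed as higher, beside 7.96%. That count was 0 without either TSA array, 2 without vehicle replicate 1, 1 without vehicle replicate 2, and 1 with no filter on dim probes. The largest of the 5 differences was that of Myh11, at -1.85 ± 0.19 (limma adjusted p = 0.012). Myocd at -1.42 ± 0.34 (limma adjusted p = 0.076) and Mylk at -1.83 ± 0.52 (limma adjusted p = 0.104) did not pass, nor did Smtn (-0.71 ± 0.18, adjusted p = 0.0838) and Cnn2 (-0.30 ± 0.20, adjusted p = 0.407).

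The signal with TSA was expressed as a percentage of the MuSC signal of the same probe. Cnn1, Lmod1, Synpo2, Myocd and Tagln stood at 40.2%, 39.8%, 39.5%, 37.5% and 35.5%. Mylk and Myh11 stood at 28.1% and 27.7%, and Smtn and Cnn2 at 61.3% and 81.3%. In vehicle Sca1+ cells the same percentage was 0.519% for Myh11, 0.579% for Cnn1 and 2.57% for Tagln, but 30.4% for Smtn and 48.7% for Cnn2, which limits how low the last 2 could stand.

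Because a high vehicle level raises this percentage, genes over 5 log2 units higher in MuSC than in vehicle were also taken alone, a limit chosen after the values were seen, with dim values raised to the lowest measurable signal. The 6 of the 9 genes past it spanned 27.7% to 40.2%, with a median of 38.5%. All 127 such genes on the array had a median of 24.7%, with quartiles of 10.1% and 32.3%. The 8 such genes of satellite cells and myoblasts spanned 4.25% (Pax7) to 18.1% (Itga7), below each of the 6. The 8 such sarcomere genes spanned 7.56% (Myh3) to 36.6% (Myom1), and the 7 other smooth muscle genes 17.0% (Des, which is also on the satellite cell list) to 43.4% (Actg2). These percentages share the TSA and MuSC arrays and carry no test.

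**Figure D3:**
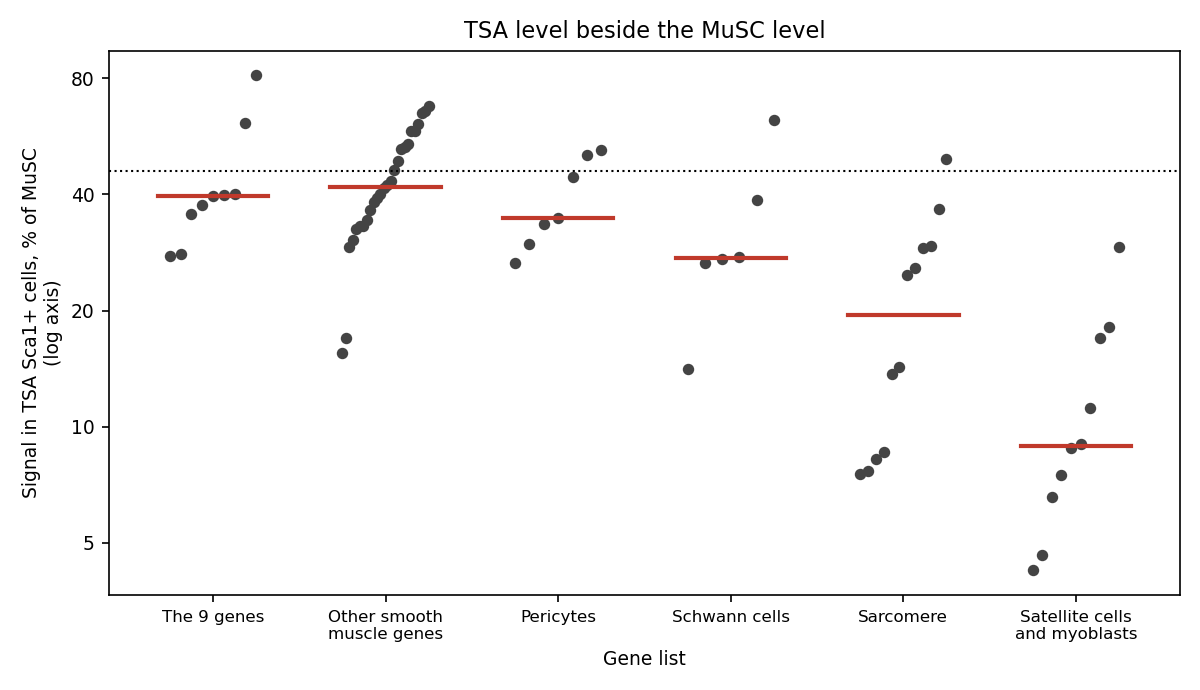
Signal in TSA Sca1+ cells as a percentage of the MuSC signal of the same probe (vertical log axis) for genes more than 1 log2 unit higher in MuSC than in vehicle Sca1+ cells, by gene list (horizontal axis). Each point is 1 gene, and the dotted line is the median of all 3018 such genes, 46.1%. Red lines are list medians: 39.5% for the 9 genes, 41.9% for other smooth muscle genes and 34.7% for pericytes. The other medians are 27.4% for Schwann cells, 19.5% for sarcomere genes and 8.90% for satellite cells and myoblasts. The 9 genes were chosen on the TSA difference.

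A wider list of 32 genes of the smooth muscle contractile apparatus, its anchorage and its calcium handling was read in the same fit. Of the 32, 18 passed as higher with TSA and 0 as lower, beside 2.71% and 0.268% of all genes. Their median difference was 1.53. Pln, Kcnmb1 and Npnt were dim on both vehicle arrays and passed the filter only through other groups. Their differences from vehicle follow in part from that filter. Leaving out TSA replicate 1 or 2 left none of the 18 calls, and leaving out vehicle replicate 1 or 2 left fewer than 18. In MuSC against vehicle 25 of 32 passed as higher and 0 as lower, beside 10.5% and 11.7% of all genes. The median was 2.72, or 2.42 with dim values at the lowest measurable signal.

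The largest fitted TSA differences of that list were in Pln, Kcnmb1, Acta2 and Actg2. Pln had -0.08 and 0.35 with TSA, 1.91 in MuSC, and -6.21 and -6.49 with vehicle, where it was not well above background, so that it was at least 25.2-fold higher with TSA (limma adjusted p = 0.00364). Kcnmb1, a subunit of the BK potassium channel that relaxes smooth muscle, was at least 11.7-fold higher with TSA (limma adjusted p = 0.00438), also against vehicle values not well above background. Acta2, smooth muscle alpha-actin, had 7.86 and 7.90 with TSA, 9.33 in MuSC, and 3.33 and 3.29 with vehicle, a difference of 4.57 ± 0.14 (limma adjusted p = 0.00358). Actg2, the gamma-actin of visceral smooth muscle, was higher with TSA by 4.51 ± 0.33 (limma adjusted p = 0.0116). With TSA these 4 genes stood at 29.3%, 32.5%, 36.5% and 43.4% of their MuSC signal.

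**Figure D4:**
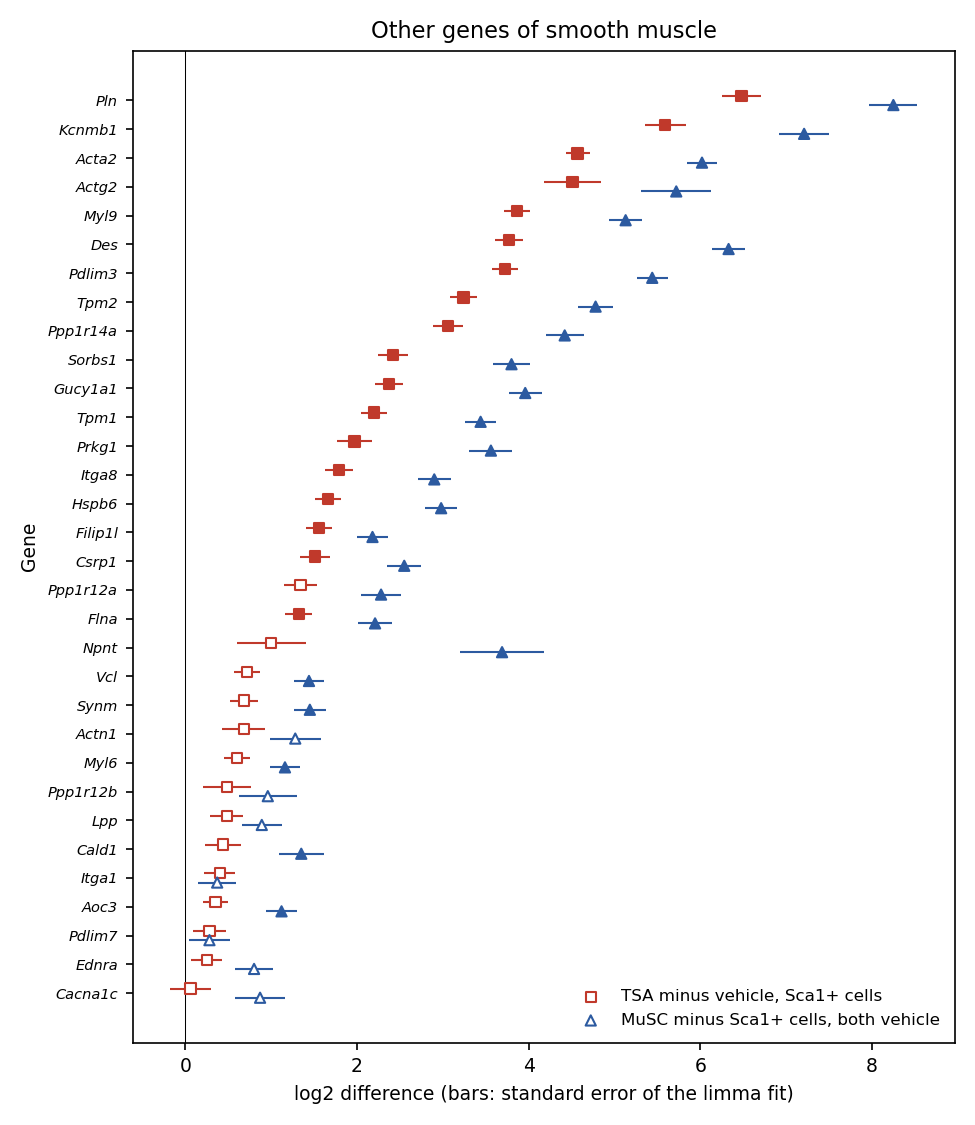
Differences of the 32 other smooth muscle genes (vertical axis) on the log2 scale (horizontal axis), with bars for the standard error of the limma fit. Squares are TSA minus vehicle in Sca1+ cells, triangles MuSC minus vehicle Sca1+ cells, and filled symbols have an adjusted p under 0.05. All 18 called TSA differences are above 0; of those measured above background in both groups, Flna is lowest at 1.32 and Acta2 highest at 4.57, while for Pln, Kcnmb1 and Npnt the vehicle values are not well above background and the plotted differences from vehicle are no measured size.

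Relatives and regulators of the 9 genes were read in the same fit. Of 17 paralogs, 14 were bright enough to test. With TSA 2 of the 14 passed as higher, Tmod1 and Lmod3, and none as lower, with a median of 0.13, beside 2.71% and 0.268% of all genes. In MuSC against vehicle 4 paralogs passed as higher and 2 as lower, beside 10.5% and 11.7% of all genes. Without either vehicle array none of the paralogs or regulators passed with TSA, and 3 paralogs passed in MuSC. Of 16 regulators, 4 passed as higher and 5 as lower in MuSC, and 1 passed as higher with TSA. The last, Hey2, a repressor downstream of Notch, was at least 3.14-fold higher (limma adjusted p = 0.00806), with vehicle values not well above background. Hey2 and Tmod1 passed the filter only through groups where they were high, so these calls follow in part from the filter. Srf, the partner of myocardin on CArG boxes, had 1.75 and 1.8 with TSA, 2.48 in MuSC, and 1.13 and 0.92 with vehicle. Its TSA difference of 0.75 ± 0.16 did not pass (limma adjusted p = 0.108), while MuSC exceeded vehicle by 1.46 ± 0.20 (limma adjusted p = 0.0127). Elk1 and Elk4, which bind beside serum response factor, differed by -0.55 ± 0.16 and -1.39 ± 0.51 (limma adjusted p = 0.166 and 0.212). The myocardin-related factors Mrtfa and Mrtfb, named after their values were seen, differed by -0.11 ± 0.17 and 0.32 ± 0.20 (limma adjusted p = 0.718 and 0.385).

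Markers of other cells moved beside these genes, and their part in the differences was not tested. Their counts stand beside 2.71% of all genes passing as higher and 0.268% as lower with TSA. In MuSC these shares of all genes were 10.5% and 11.7%. Myf5, Calcr, Ttn, Mybph, Myom1, Cma1 and Fcer1a were dim on both vehicle arrays. They passed the filter only through other groups, so their differences from vehicle follow in part from it. Of 10 pericyte markers, 4 passed as higher with TSA (Rgs5 at 3.29 ± 0.20, Notch3 at 2.15 ± 0.17, Higd1b at 2.05 ± 0.19 and Kcnj8 at 1.60 ± 0.19) and 8 as higher in MuSC, with 1 lower. Their summed signal, in multiples of the array's 75th percentile, was 106 and 102 with TSA, 224 in MuSC, and 67.6 and 67.9 with vehicle. For the 9 smooth muscle genes the same sum was 371 and 316 with TSA, 929 in MuSC, and 34.0 and 39.8 with vehicle. Of it, Tagln alone gave 290 and 235 with TSA, 735 in MuSC, and 16.4 and 21.7 with vehicle. In the pericyte sum, Pdgfrb, the marker lower in MuSC, gave 22.3 and 25.6 with TSA and 14.3 in MuSC. Such sums follow the brightest genes of a list, so they do not compare the lists gene by gene. No pericyte marker was dim on all arrays of a group. Without vehicle replicate 1, and likewise without vehicle replicate 2, 1 pericyte marker passed with TSA and 5 in MuSC.

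Of 10 satellite cell and myoblast markers, 8 passed as higher with TSA and 10 in MuSC, led in TSA by Myog (4.89 ± 0.20), Calcr, Chrna1 (4.48 ± 0.15) and Cdh15 (4.36 ± 0.22). Their summed signal was 45.3 and 47.9 with TSA, 303 in MuSC, and 12.8 and 12.5 with vehicle, where Myf5 and Calcr were not well above background. Of 12 sarcomere genes, 10 passed as higher with TSA and 12 in MuSC, with sums of 33.0 and 37.6 with TSA, 167 in MuSC, and 3.31 and 3.38 with vehicle, where Ttn, Mybph and Myom1 were not well above background. Of 8 Schwann cell markers, 4 passed as higher with TSA (2 without vehicle replicate 1, 1 without vehicle replicate 2) and 6 in MuSC. Their sums were 48.2 and 53.7 with TSA, 98.2 in MuSC, and 38.0 and 44.6 with vehicle. Both TSA arrays lay between the vehicle arrays and the MuSC array for 7 of 10 pericyte markers, 10 of 10 satellite cell markers, 12 of 12 sarcomere genes and 6 of 8 Schwann cell markers. The share over all genes, rising from vehicle to MuSC, was 13.9%.

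For markers of 3 other cell types the TSA arrays lay above the vehicle arrays and below the MuSC array for 0 of 7 mast cell, 0 of 10 endothelial and 0 of 10 fibroadipogenic progenitor genes, beside 13.9% of all genes. Of the 7 mast cell markers tested, 6 passed as higher with TSA, while 0 passed as higher in MuSC and 1 as lower. Their summed signal was 33.2 and 30.5 with TSA, 1.35 in MuSC, and 1.90 and 2.25 with vehicle, and Cpa3, Cma1, Mcpt4, Fcer1a and Ms4a2 were not well above background in MuSC. Among the endothelial markers, with sums of 189 and 201 with TSA, 70.9 in MuSC, and 121 and 156 with vehicle, Vwf passed as higher with TSA (2.96 ± 0.15, limma adjusted p = 0.00527; not without vehicle replicate 2). In MuSC 1 endothelial marker passed as higher and 7 as lower, and 5 in all passed without vehicle replicate 1 or without either TSA array. The markers of fibroadipogenic progenitors, connective tissue cells of muscle that carry Sca1, include Ly6a, the gene of Sca1. Its lower level in MuSC follows from the gate. Cd34 on this list and Itga7 on the satellite cell list encode antigens that both populations were sorted for. The fibroadipogenic progenitor markers summed to 1730 and 2080 with TSA, 313 in MuSC, and 3400 and 4740 with vehicle. Of these 10, Pi16 passed as lower with TSA (-1.37 ± 0.18, limma adjusted p = 0.0463; no marker did without either vehicle array) and 10 passed as lower in MuSC.

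Between 58.5% and 66.9% of spots per array were well above background, no spot was saturated, and the 75th percentile of intensity was 326 and 452 on the TSA arrays, 240 on the MuSC array, and 235 and 165 on the vehicle arrays. Replicate arrays correlated across probes at 0.989 for TSA and 0.987 for vehicle. The number of arrays limits the precision.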

How the data were processed

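RNA of sorted cells was hybridised to 5 Agilent arrays of 1 colour. Per the file headers, the authors obtained the deposited spot intensities from Agilent Feature Extraction 10.7.3.1, whose probe positions are in mm9. The deposited table of log2 values was used as an alternative; how it was made is not given in the sources used here.

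The level is log2 of the processed signal minus the array's 75th percentile over 59305 non-control spots. Outlier spots were left out and spots of a probe averaged. Probes were named through RefSeq accessions (26413 of 55681) and otherwise kept the design's name, and the probe with the highest mean stood for a gene. A gene was tested where all arrays of 1 or more groups measured it well above background. The limma functions lmFit and eBayes (limma 3.58.1, R 4.3.3) were run over 5 arrays in 3 groups (2 residual and 2.3 prior degrees of freedom). Tests were two-sided and adjusted by Benjamini-Hochberg over all genes, at a threshold of 0.05. Errors are the fit's standard errors.

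The 9 genes and all lists were chosen with earlier results of these data known. Named were the 9 genes with all their probes and the 5 genes nearest to Myocd and to Cnn1. The plan also covered paralogs of the 9, and the 4 genes of each list with the largest absolute TSA difference among those tested. It was not carried through for every list. Several paralogs and several sarcomere, Schwann cell, endothelial and fibroadipogenic progenitor genes are left out, and some genes outside the plan are named. The slide number equals the replicate number. Deviations of same-numbered TSA and vehicle arrays from their group means correlated at 0.348, and 2 pairs are too few to settle a pairing. The fit was tested on simulated data for TSA against vehicle over 26083 genes with 200 changed. It called 0% of changes of 1 or 2 log2 units and 73.3% of changes of 4. The reported fit called more genes, 708 as higher and 70 as lower with TSA, so these rates do not apply to it directly. It called Flna at 1.32 and Lmod3 at 1.30, but not Mylk at 2.67. Promoter windows are the 250 bases before RefSeq gene starts (GRCm38.p6).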

Additional observations from a re-analysis of the deposited data

How the results depend on the processing

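No result on the 9 genes reversed: of 252 values of a gene in a comparison under an alternative, 203 kept direction and side of the threshold, 40 no longer passed and 9 newly passed. Leaving out 1 array in turn, the called genes of the 9 ranged from 0 to 6 for TSA against vehicle, and from 0 to 2 for TSA against MuSC, and were 8 for MuSC against vehicle. Of the 32 other smooth muscle genes, those called for TSA ranged from 0 to 10. Each such fit has 1 residual degree of freedom. With no filter on dim probes, 1 of the 9 was called for TSA against MuSC and 8 for MuSC against vehicle. The mean over probes of a gene also gave 8 for MuSC against vehicle. With the slide as a replicate block, 7 of the 9 passed for TSA against vehicle, Mylk being the added one (2.67 on the log2 scale), and 6 for TSA against MuSC. Normexp (offset 50) was run on median signals, which the files of both slides hold, and not on the mean signals planned. It gave 9 of 9 for TSA, and over all genes 1253 higher and 5876 lower calls, against 708 and 70 in the reported fit; among markers it called 6 of fibroadipogenic progenitors and 8 of endothelial cells for TSA, against 1 and 1. The fit to the 4 Sca1+ arrays alone gave 6 of 9. Dim probes limit what Myocd and Lmod1 can show to lower bounds, and the cause of the moves was not tested.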
